A study of Mus musculus with 2 samples.

Results

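Genes of the mesonephric duct and tubule epithelium, the 9 listed genes Pax2, Pax8, Epcam, Cdh1, Gata3, Lhx1, Cldn3, Cldn6 and Cldn7, were followed through somatic cells of the mouse fetal gonad. They were chosen by name, with earlier results of these data known. Symbols were matched to the Ensembl identifiers of the somatic count table, which gave 9 of 42422 genes. The cells were the GFP-negative fraction sorted from E12.5 gonads carrying an Oct4-eGFP transgene, which marks germ cells, in a cross of Swiss mice with the transgenic line on a 129svJT2 background. The 40 libraries formed 10 groups of 4: XX and XY gonads at 0 h, XX and XY gonads cultured in DMSO for 24 h or 72 h, and XY gonads cultured for 24 h or 72 h with 500 nM of the MEK1/2 inhibitor PD0325901 (MEKi) or of the FGF receptor inhibitor BGJ398 (FGFRi). The sorted cells were wild type apart from the transgene, each library came from pooled gonads, and the attached mesonephros was removed after culture and before sorting.

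The mesonephric duct runs beside the fetal gonad and, with its tubules, gives rise to parts of the male reproductive tract. Its epithelium depends on the paired-box factors Pax2 and Pax8, the zinc-finger factor Gata3 and the LIM homeodomain factor Lhx1. Like other epithelia it is held together by E-cadherin (Cdh1), the adhesion molecule Epcam and claudins, the proteins of tight junctions. None of these genes is restricted to the duct, since germ cells, coelomic epithelium and other epithelia also express some of them.

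The libraries held 1380707 to 4836550 UMI counts. They were made and sequenced in 2 pools of 20 libraries: pool 1 held the 0 h groups, both 24 h DMSO groups and the 24 h MEKi group, and pool 2 held the 24 h FGFRi group and all 72 h groups. Comparisons of 24 h FGFRi with 24 h DMSO, and of 72 h DMSO with 24 h DMSO, therefore ran between pools, where pool and condition cannot be told apart. Sex labels matched expression in every library: Xist ranged from 601 to 1061 CPM (TMM-scaled UMI counts) in the 12 XX libraries and from 0 to 5.18 CPM in the 28 XY libraries. No label says whether the 4 libraries of a group came from separate litters, so the tests measure only the spread between these libraries. Levels are given as TMM-scaled CPM (each library scaled to a common size) of 3′ UMI counts, and a fold change was called when the adjusted p (Benjamini-Hochberg over 15125 tested genes, edgeR quasi-likelihood test) was under 0.05 and the fold was at least 1.5.

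Only some of the members were measurable. Pax8, Epcam, Cdh1, Gata3 and Lhx1 passed the filter on low counts and were tested (5 of 9). Lhx1 passed through libraries at 24 h in DMSO or MEKi, since no other library was above 4.03 CPM. Pax2, a paired-box factor of the duct epithelium, had 0 to 7 counts per library, 42 in all 40 libraries together, and was at 0 in 17 libraries. Cldn3 had 0 to 17 counts per library, Cldn6 0 to 12 and Cldn7 0 to 20. Of the other duct genes, a separate list of 11, 5 were tested, with Emx2 at a mean of 119 CPM and Wfdc2 at 13.3 CPM. Among the rest Sim1 had no count, while Tfap2a had 1 count and Wnt9b had 7 counts over all 40 libraries. Where no count was found, up to 3 counts can be missed, which was 0.575 to 2.32 CPM depending on the library, and this covers counting error only. Of the genes listed for supporting and interstitial cells of the gonad, Wt1 averaged 388 CPM, Nr5a1 196 CPM and Amh 3.2 CPM. The 9 genes are therefore described by their names and not as a duct cell population. In bulk samples such as these, fewer cells of a type and less RNA per cell cannot be told apart.

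**Figure D1:**
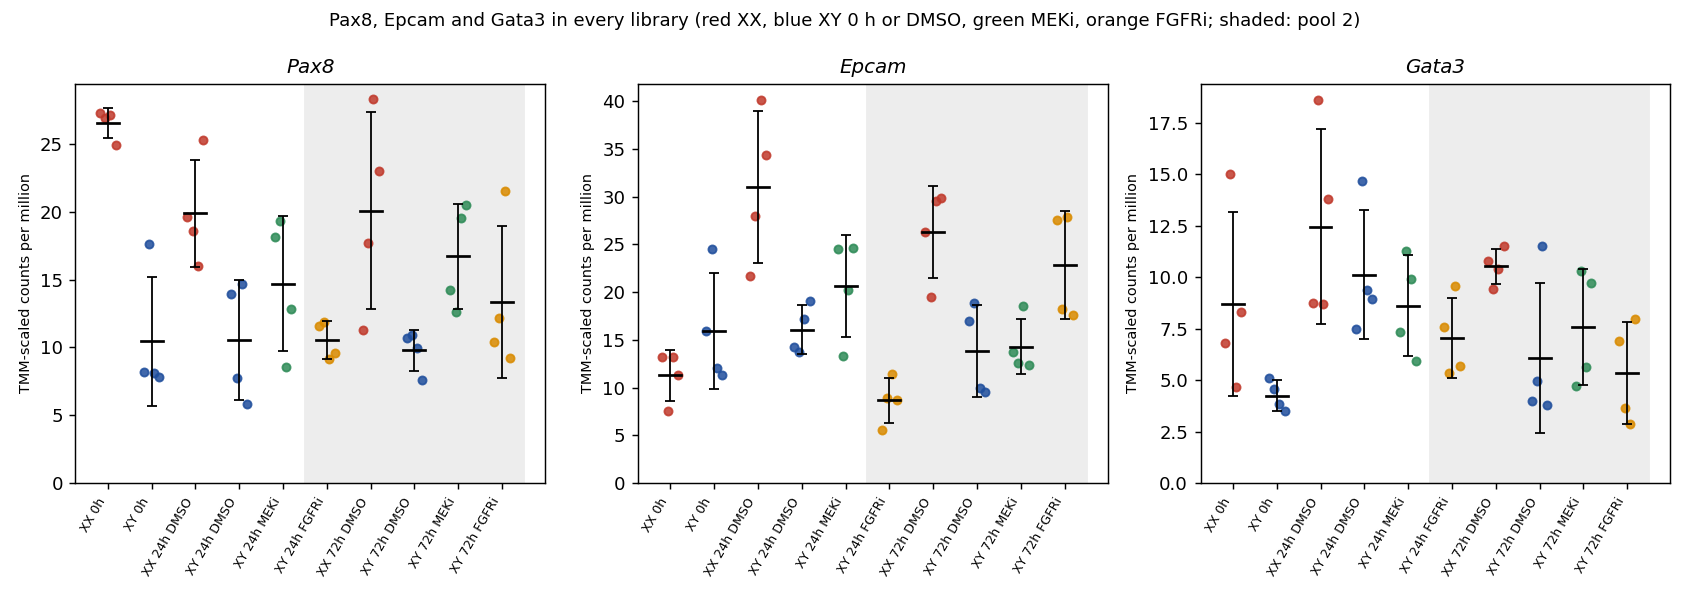
Pax8, Epcam and Gata3 in each library (y axis, TMM-scaled CPM) by group (x axis); points are libraries, bars the mean and SD of 4 libraries, and shading marks pool 2. Pax8 in XX libraries lay above the XY control libraries at 0 h, 24 h and 72 h, and Epcam did so at 24 h and 72 h.

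Positions are on GRCm39. Pax2 lies at chr19:44735057-44826703 on the plus strand, Pax8 at chr2:24309418-24365617 on the minus strand, Epcam at chr17:87943407-87958557 on the plus strand, Cdh1 at chr8:107329941-107396880 on the plus strand and Gata3 at chr2:9861889-9894845 on the minus strand. Lhx1 lies at chr11:84408803-84416368 on the minus strand, Cldn3 at chr5:135015068-135016326, Cldn6 at chr17:23898223-23901420 and Cldn7 at chr11:69852648-69858711, the claudins all on the plus strand. All 9 are annotated as protein-coding.

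Pax8 and Epcam were the members called higher in XX than XY libraries at both cultured times, and their promoter windows are printed for that reason. The windows come from RefSeq (GRCm38.p6 table, 8 of 9 members matched) and run from 250 bases before to 50 bases after the annotated start. Each matched the GRCm39 genome once and exactly, Pax8 at chr2:24365562-24365861 on the minus strand and Epcam at chr17:87943157-87943456 on the plus strand. Capitals mark the E-box CAGGTG and the GC box GGGCGG on either strand.
Pax8: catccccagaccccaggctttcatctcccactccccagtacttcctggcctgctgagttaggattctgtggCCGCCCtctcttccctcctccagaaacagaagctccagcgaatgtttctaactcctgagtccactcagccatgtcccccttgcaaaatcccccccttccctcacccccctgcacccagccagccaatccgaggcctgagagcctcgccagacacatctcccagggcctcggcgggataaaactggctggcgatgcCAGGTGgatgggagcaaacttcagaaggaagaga
Epcam: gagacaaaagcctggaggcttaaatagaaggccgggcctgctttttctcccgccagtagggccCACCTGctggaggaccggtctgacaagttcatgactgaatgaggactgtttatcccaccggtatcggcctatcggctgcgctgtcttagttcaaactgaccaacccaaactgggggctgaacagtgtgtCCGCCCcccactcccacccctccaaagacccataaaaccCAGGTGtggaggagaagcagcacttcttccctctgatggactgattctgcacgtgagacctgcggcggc
The Epcam window held 2 E-boxes and 1 GC box and the Pax8 window 1 of each, and neither held TATAAA. Of 32544 promoter windows of this length, 20.3% held the E-box, 35.9% the GC box and 13.6% TATAAA, so these letters are common and the matches are a description only.

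Between XX and XY gonads at 0 h, Pax8 and Gata3 were higher in XX and no tested member was called lower. Pax8 measured 27.3, 26.9, 27.1 and 24.9 CPM in the XX libraries and 8.21, 17.6, 8.13 and 7.83 CPM in the XY libraries. There was no overlap, and the XY library at 17.6 CPM stood above its group. The log2 fold change was 1.37 (SE 0.289, adjusted p = 0.000198, edgeR), a 2.58-fold difference. Gata3 measured 6.83, 15.0, 4.65 and 8.29 CPM in XX and 5.13, 4.55, 3.82 and 3.48 CPM in XY libraries, so the groups overlapped. Its log2 fold change was 1.08 (SE 0.392, adjusted p = 0.0376, edgeR). The Gata3 call was lost without XX replicate F3 (log2 0.69, adjusted p = 0.27, edgeR), F5 (1.12, 0.051) or XY replicate M3 (1.11, 0.0594), M5 (1.02, 0.0866) or M6 (1.00, 0.0967). Of the members tested 2 of 5 were called here, against 17.3% of the 15125 tested genes.

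After 24 h in DMSO, Pax8 remained higher in XX libraries and Epcam was higher too. Pax8 measured 19.6, 18.6, 16.0 and 25.3 CPM in XX and 13.9, 7.71, 14.7 and 5.83 CPM in XY libraries. The groups did not overlap (log2 0.88, SE 0.266, adjusted p = 0.0091, edgeR), but without XX replicate F9 the adjusted p was 0.0537 (log2 0.74) and without XY replicate M3 it was 0.0509 (log2 0.74). Epcam, an epithelial adhesion molecule, measured 21.7, 28.0, 40.1 and 34.4 CPM in XX and 14.3, 13.7, 17.2 and 19.1 CPM in XY libraries. Every XX library lay above every XY library, with a log2 fold change of 0.94 (SE 0.224, adjusted p = 0.000851, edgeR). At this time 2 of 5 tested members were called, against 19.6% of all tested genes.

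After 72 h the same pair was called. Pax8 measured 11.3, 17.7, 28.3 and 23.0 CPM in XX and 10.7, 10.9, 9.97 and 7.61 CPM in XY libraries, with the lowest XX library just above the highest XY library. The log2 fold change was 1.05 (SE 0.290, adjusted p = 0.00398, edgeR), and without XX replicate F7 it was 0.80 (adjusted p = 0.0563, edgeR). Epcam measured 26.3, 19.5, 29.5 and 29.8 CPM in XX and 17, 18.9, 9.97 and 9.52 CPM in XY libraries. These groups did not overlap either (log2 0.92, SE 0.245, adjusted p = 0.00288, edgeR). The background was 20.3% of tested genes called, and 2 of 5 members were called. A test against a fold of 1.5 itself, with limma-voom and quality weights, called Pax8 at 0 h but neither gene at 24 h or 72 h.

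Gata3, Cdh1 and Lhx1 were not called between the sexes at 24 h or 72 h. Gata3 at 72 h measured 10.8, 9.45, 10.4 and 11.5 CPM in XX and 4.00, 4.97, 11.5 and 3.81 CPM in XY libraries (adjusted p = 0.077, edgeR), where a single XY library, M5, reached the XX level, and without it Gata3 was called (log2 1.31, adjusted p = 0.0085, edgeR). Cdh1 stayed at 0 to 3.71 CPM in the XX libraries of the 3 times. Among the untested claudins, Cldn6 summed to 4 counts in XX and 19 counts in XY libraries at 0 h, a ratio of 5.01 in favour of XY (95% exact interval 1.67 to 20.3, counting error only). At 24 h Cldn6 summed to 14 counts in XX and 19 counts in XY, a ratio of 1.07 (95% exact interval 0.507 to 2.3, counting error only). At 72 h it summed to 6 counts in XX and 18 counts in XY, of which 11 came from replicate M4. Cldn7 at 72 h summed to 6 counts in XX and 20 counts in XY, a ratio of 3.32 in favour of XY (1.29 to 10.1). Cdh1 at 72 h summed to 9 and 24 counts, a ratio of 2.66 in favour of XY (1.19 to 6.5). Pax2 at 0 h summed to 6 counts in XX and 0 counts in XY, with a lower bound of 1.12 in favour of XX. The other intervals of Pax2, Cldn3 and Cldn7 spanned equal levels.

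Other genes moved with sex beside these members. Of the 11 other duct genes 5 were tested, of which 3 were higher in XX at 0 h, 2 at 24 h, and 2 higher and 1 lower at 72 h. Emx2, a homeobox gene of the urogenital ridge, was higher in XX at 0 h (300 ± 21.9 against 70 ± 8.5 CPM, SD, n = 4; log2 2.10, adjusted p = 2.92e-17, edgeR). Calb1, which encodes a calcium-binding protein, was also higher in XX at 0 h (15 ± 2.67 against 1.66 ± 1.42 CPM). Wfdc2 of the same list was lower in XX at 72 h (7.33 ± 2.08 against 14.6 ± 3.56 CPM). The coelomic epithelium gene Krt19, a keratin, was higher in XX at 24 h (150 ± 20.6 against 58.8 ± 9.36 CPM) and at 72 h (130 ± 12.9 against 76.1 ± 12.7 CPM). Upk1b, also a coelomic gene, was lower in XX at 24 h (6.73 ± 2.37 against 14.1 ± 4.15 CPM) and at 72 h (5.03 ± 2.19 against 13.1 ± 3.04 CPM). Of 21 other epithelial genes 7 were tested, of which 1 was higher and 1 lower in XX at 0 h, 3 were higher at 24 h and 4 at 72 h. Krt8 and Krt18, keratins of simple epithelia, were higher in XX at 24 h (Krt18 102 ± 7.71 against 46.9 ± 6.13 CPM) and at 72 h (Krt18 71.2 ± 6.02 against 29.1 ± 12.3 CPM). The epithelial gene lower in XX at 0 h was Spint2 (58.8 ± 7.93 against 211 ± 15.8 CPM, log2 -1.86, adjusted p = 2.57e-14, edgeR). Of the 5 coelomic genes 4 were tested, and of those 3 were higher in XX at 0 h, 1 was higher and 1 lower at 24 h, and 2 were higher and 1 lower at 72 h. Their summed level was 180 to 236 CPM in XX and 94.4 to 142 CPM in XY libraries at 0 h, and 353 to 411 CPM against 223 to 305 CPM at 72 h, and its part in the member differences was not tested. Of 11 tested germ cell genes 1 was higher and 5 were lower in XX at 0 h, 4 were higher at 24 h, and 2 were higher and 4 lower at 72 h. At 24 h 5 of 5 tested endothelial genes were lower in XX (summed level 66.2 to 86.5 against 127 to 183 CPM), and so were 4 of 5 erythroid genes (910 to 2170 against 2700 to 6991 CPM). The part of these lists was not tested either.

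**Figure D2:**
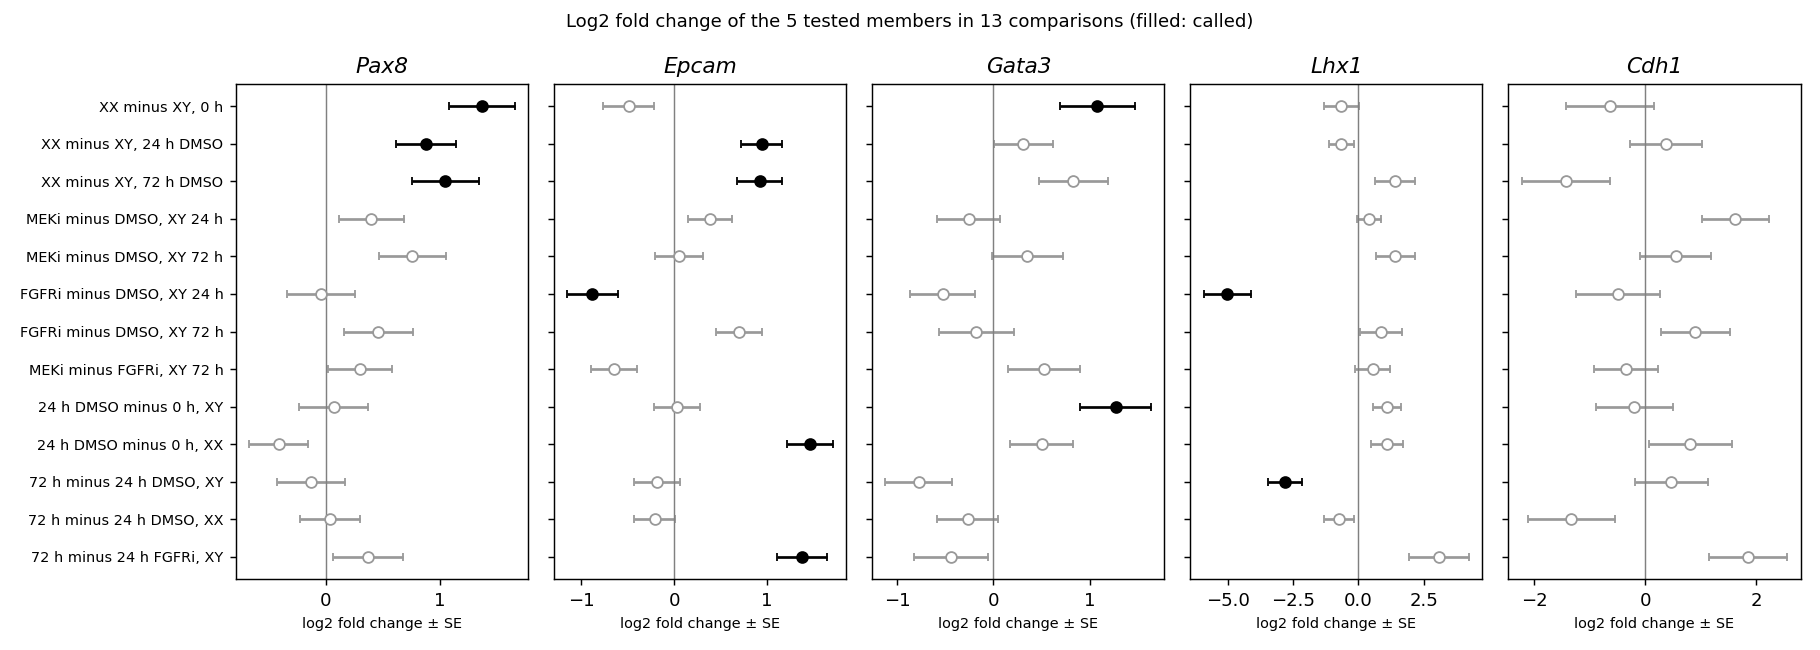
Log2 fold change with its SE (x axis) of the 5 tested members in the 13 comparisons (y axis), from edgeR; filled points were called. Pax8 points for XX minus XY are filled at all 3 times, and both inhibitor comparisons at 72 h have no filled point.

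During the first day of culture Epcam rose in XX libraries and was not called in XY libraries. In XX it went from 13.2, 7.51, 13.2 and 11.3 CPM at 0 h to 21.7, 28.0, 40.1 and 34.4 CPM at 24 h, without overlap. The log2 fold change was 1.46 (SE 0.250, adjusted p = 2.16e-05, edgeR), a 2.74-fold rise. In XY libraries Epcam was 15.9, 24.5, 12 and 11.3 CPM at 0 h and 14.3, 13.7, 17.2 and 19.1 CPM at 24 h, fully overlapping (log2 0.03, adjusted p = 0.945, edgeR). The difference between the sexes in this change was itself tested and was 1.42 on the log2 scale (SE 0.354, adjusted p = 0.00612, edgeR). Epcam was the 1 member of 5 tested to be called in the XX change and in the difference of changes, against 7.73% and 6.2% of tested genes.

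Germ cell genes moved in the same direction as Epcam in XX over this interval. Of 14 germ cell genes 11 were tested, of which 5 rose and 1 fell in XX, and the summed level went from 134 to 172 CPM at 0 h to 162 to 328 CPM at 24 h. Dazl, an RNA-binding protein of germ cells, was 19.8 ± 2.55 CPM at 0 h and 63.9 ± 20.1 CPM at 24 h in XX (SD, n = 4). In XY libraries the summed level was 241 to 385 CPM at 0 h and 155 to 247 CPM at 24 h. Of 4 tested coelomic genes 3 rose in XX and 4 in XY: Krt19 went from 29.2 ± 11.1 to 150 ± 20.6 CPM in XX and from 13 ± 2.59 to 58.8 ± 9.36 CPM in XY. Erythroid genes fell in both sexes, with 5 of 5 tested called lower. Their part in the Epcam change was not tested. Within groups, Epcam and the summed germ cell level had a Pearson r of 0.14 over 40 libraries, which is a description of libraries that share depth and sort.

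**Figure D3:**
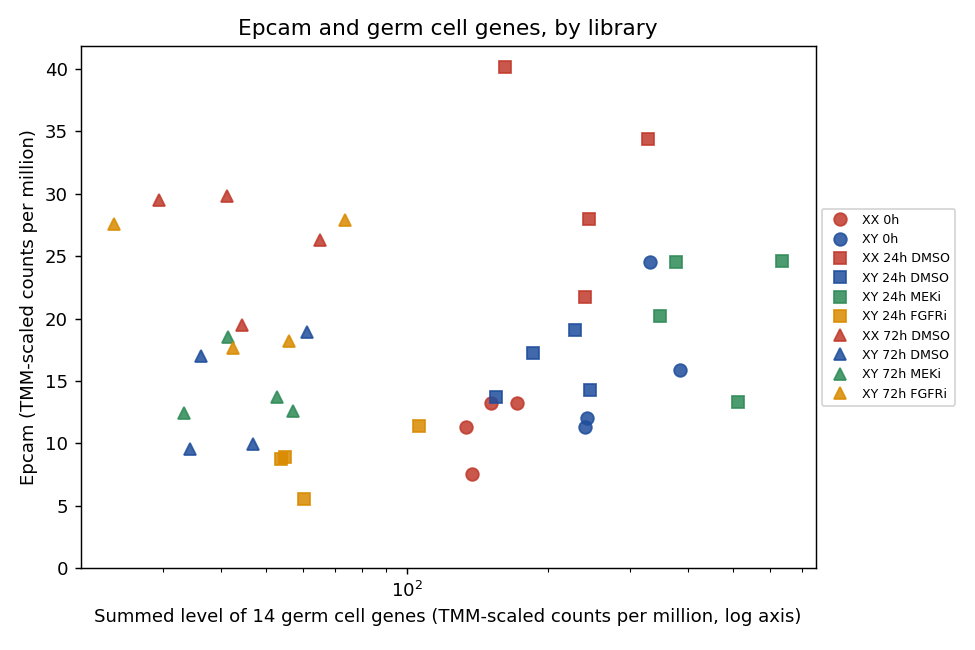
Epcam (y axis, TMM-scaled CPM) against the summed level of 14 germ cell genes (x axis, log scale) in 40 libraries; colours give sex and treatment, circles 0 h, squares 24 h and triangles 72 h. The 72 h XX libraries combine 19.5 to 29.8 CPM of Epcam with 29.5 to 65.3 CPM of germ cell genes, and the 24 h MEKi libraries combine 13.3 to 24.6 CPM of Epcam with 348 to 636 CPM of germ cell genes. The 24 h FGFRi libraries combine 5.56 to 11.4 CPM of Epcam with 53.8 to 106 CPM of germ cell genes. In XX, Epcam of 7.51 to 13.2 CPM goes with 134 to 172 CPM at 0 h, and 21.7 to 40.1 CPM with 162 to 328 CPM at 24 h.

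Gata3 rose in XY libraries over the same day. It measured 5.13, 4.55, 3.82 and 3.48 CPM at 0 h and 7.49, 14.7, 9.39 and 8.94 CPM at 24 h in DMSO. No library overlapped (log2 1.27, SE 0.370, adjusted p = 0.00867, edgeR), and without the 24 h replicate M3 the log2 value was 1.03 (adjusted p = 0.0617, edgeR). Of 5 sympathoadrenal genes 2 were tested and 1 rose in XY, Hand2, from 8.9 ± 2.54 to 20.2 ± 4.62 CPM (adjusted p = 0.00119, edgeR). Their summed level was 9.38 ± 2.64 CPM at 0 h and 30.4 ± 20.8 CPM at 24 h (14.6 to 60.9 CPM), highest in M3, which also had the most Gata3, and its part in the Gata3 change was not tested. In XX libraries Gata3 gave log2 0.50 (adjusted p = 0.35, edgeR), and the difference between the sexes in the Gata3 change was not called (log2 -0.77, adjusted p = 0.454, edgeR). Lhx1 in XY measured 2.56, 3.98, 1.43 and 2.61 CPM at 0 h and 5.7, 4.97, 7.09 and 4.67 CPM at 24 h, apart but not called (log2 1.10, adjusted p = 0.133, edgeR), and in a fit of these 2 groups alone it was called (adjusted p = 0.0437, edgeR). In XY 1 of 5 members was called against 14.4% of tested genes. Wfdc2, a secreted protein of epithelia from the list of other duct genes, rose in both sexes, from 3.4 ± 1.83 to 12.3 ± 3.59 CPM in XY and from 2.77 ± 1.36 to 7.94 ± 1.22 CPM in XX.

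Between 24 h and 72 h in DMSO, Lhx1 was lower in XY libraries at 72 h and no member was called in XX. Lhx1, a LIM homeodomain factor, had 16, 20, 37 and 12 counts at 24 h and 3, 1, 1 and 2 counts at 72 h in XY libraries. All 24 h libraries were above all 72 h libraries (log2 -2.81, SE 0.645, adjusted p = 0.00171, edgeR). In XX libraries Lhx1 had 6, 14, 3 and 18 counts at 24 h and 0, 5, 13 and 2 counts at 72 h, with overlap. The call in XY was 1 of 5 members against 7.27% of tested genes, and in XX 0 of 5 against 8.15%. Lhx1 was kept by the filter on low counts through 24 h libraries, the higher side of this XY step. The difference of the changes between the sexes called no member either, against 2.04% of tested genes, and Lhx1 gave log2 2.07 (adjusted p = 0.315, edgeR). Gata3 in XY was not called (log2 -0.78, adjusted p = 0.142, edgeR) but was without 72 h replicate M5 (log2 -1.27, adjusted p = 0.0214, edgeR). These times lie in different pools. Across the same step 6 of 11 tested germ cell genes fell in XY and 8 fell in XX; the summed level was 155 to 247 CPM at 24 h and 34.3 to 61.1 CPM at 72 h in XY libraries. In XY 4 of 5 tested endothelial genes and 4 of 5 erythroid genes fell, and 3 of 5 macrophage genes rose. Lhx1 and the summed germ cell level had a within-group Pearson r of -0.17 over 40 libraries. With group means left in, the genes nearest Lhx1 were Egln2 (r = 0.70), Dppa4 (0.65) and Sall4 (0.65). The paper counts Dppa4 among male germline markers. The part of these lists in the Lhx1 difference was not tested.

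**Figure D4:**
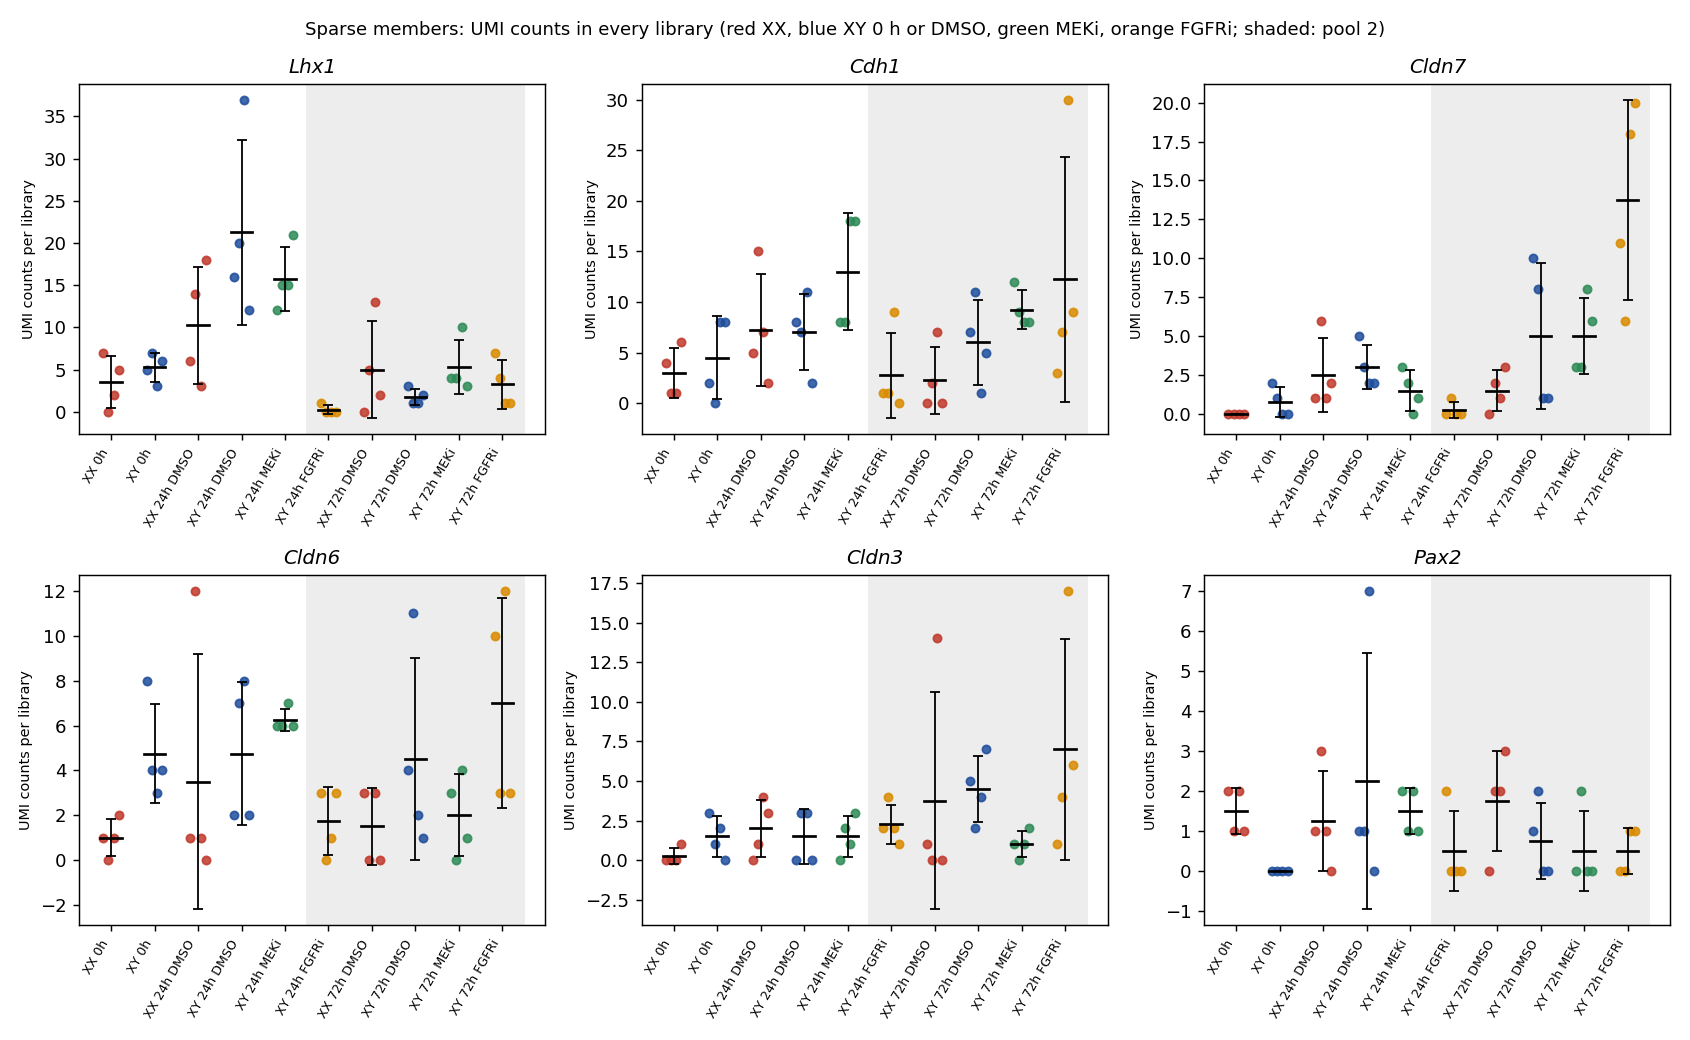
UMI counts per library (y axis) of the 6 members with the fewest counts, by group (x axis); points are libraries, bars the mean and SD of 4 libraries, and shading marks pool 2. Lhx1 had 12 to 37 counts in 24 h XY DMSO libraries and 0 or 1 count in 24 h FGFRi libraries, while Cldn7 had 6 to 20 counts in 72 h FGFRi libraries and 0 or 1 count in 24 h FGFRi libraries.

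With FGFRi for 24 h, Lhx1 and Epcam were lower than in 24 h DMSO. Lhx1 had 1, 0, 0 and 0 counts in the FGFRi libraries against 16, 20, 37 and 12 counts in DMSO. The sums of 85 and 1 count give a ratio of 47.3 (95% exact interval 8.27 to 1891, counting error only) per effective library size. In the edgeR test Lhx1 had an adjusted p of 0.00017, and its fitted log2 value of -5.03 depends on the prior count. Lhx1 passed the filter on low counts only through 24 h DMSO and MEKi libraries. The DMSO libraries are the higher side here, so the filter and this test share them. Epcam measured 5.56, 8.93, 11.4 and 8.74 CPM with FGFRi against 14.3, 13.7, 17.2 and 19.1 CPM in DMSO. All FGFRi libraries were below all DMSO libraries (log2 -0.88, SE 0.270, adjusted p = 0.0433, edgeR). The Epcam call was lost without DMSO replicate M4 (log2 -0.85, adjusted p = 0.0982, edgeR) or M5 (-0.80, 0.112), or FGFRi replicate M1 (-0.72, 0.182), M3 (-0.89, 0.0831) or M5 (-0.88, 0.0928). Of the members 2 of 5 were called, Lhx1 among them with that limit, against 3.27% of tested genes. The comparison crosses pools, so FGFRi and pool cannot be told apart for either gene.

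Germ cell genes were also lower in the 24 h FGFRi libraries. Of 11 tested 4 were lower and 1 was higher, Dazl was 11.5 ± 4.33 CPM with FGFRi and 42.2 ± 7.65 CPM in DMSO, and the summed level was 53.8 to 106 CPM against 155 to 247 CPM. Pax8 was at 11.6, 11.9, 9.11 and 9.61 CPM with FGFRi and gave no called difference from DMSO (log2 -0.04, adjusted p = 0.974, edgeR). Krt18 was higher with FGFRi (85.1 ± 6.21 against 46.9 ± 6.13 CPM). The germ cell genes' part in the Epcam and Lhx1 differences was not tested.

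Within pool 2, XY libraries in FGFRi had more Epcam at 72 h than at 24 h. Epcam measured 27.6, 18.2, 27.9 and 17.6 CPM at 72 h and 5.56, 8.93, 11.4 and 8.74 CPM at 24 h. The groups did not overlap, with a log2 fold change of 1.38 (SE 0.270, adjusted p = 0.000225, edgeR), a 2.61-fold rise. In this step 1 of 11 tested germ cell genes was called, lower at 72 h, and the summed germ cell level was 23.6 to 73.8 CPM at 72 h against 53.8 to 106 CPM at 24 h. Endothelial genes fell in the same step (4 of 5 tested) and so did erythroid genes (4 of 5 tested). Of 4 tested coelomic genes 1 rose, Krt19, from 63.2 ± 9.84 to 113 ± 11.1 CPM (adjusted p = 3.67e-05, edgeR), and of 5 tested other duct genes 2 fell, among them Emx2, from 96.4 ± 8.31 to 58.3 ± 5.63 CPM. Their part in the Epcam change was not tested. Epcam was 1 of 5 members called, against 6.7% of tested genes.

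Cldn7, a claudin of tight junctions, moved the same way but was below the filter and so had no main test. It had 0, 1, 0 and 0 counts at 24 h and 11, 6, 18 and 20 counts at 72 h with FGFRi. The groups did not overlap, and the sums of 55 and 1 counts give a ratio of 47.7 (95% exact interval 8.22 to 1919, counting error only). Without the filter on low counts edgeR gave an adjusted p of 4.34e-05. At 72 h Cldn7 summed to 20 counts in XY DMSO libraries and 20 counts in XY MEKi libraries, against 55 counts with FGFRi. Cdh1 had 1, 1, 9 and 0 counts at 24 h and 3, 7, 30 and 9 counts at 72 h with FGFRi, which overlapped (adjusted p = 0.0975, edgeR), and without 24 h replicate M4 it was called (log2 3.69, adjusted p = 0.00954, edgeR).

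Against DMSO at the same time, FGFRi at 72 h gave no call among the 5 tested members, where 1.8% of tested genes were called. Of 7 tested other epithelial genes 4 were higher with FGFRi, among them Krt18 (72.3 ± 8.84 against 29.1 ± 12.3 CPM). All 5 macrophage genes tested were lower, and no germ cell, coelomic, endothelial or other duct gene was called. The part of these lists was not tested. Epcam in FGFRi (17.6 to 27.9 CPM) overlapped with DMSO (17, 18.9, 9.97 and 9.52 CPM), with a log2 fold change of 0.70 (SE 0.248, adjusted p = 0.128, edgeR). Untested Cldn7 summed to 55 counts with FGFRi and 20 counts in DMSO, and the groups overlapped. Per effective library size the ratio was 2.67 (95% exact interval 1.58 to 4.71, counting error only). The intervals of Pax2, Cldn3 and Cldn6 spanned equal levels. The change of the FGFRi effect from 24 h to 72 h was tested and was 1.58 for Epcam (SE 0.367, adjusted p = 0.0325, edgeR). It also passed for Lhx1 (adjusted p = 0.0183, edgeR), whose fitted log2 value of 5.90 rests on the 24 h FGFRi libraries with 1 count. Both calls include the step between pools, and 2 of 5 members were called against 0.357% of tested genes. The Lhx1 call also includes the 24 h DMSO libraries through which it passed the filter. Epcam was called in 7 of 16 leave-one-out fits. Without one of 24 h DMSO M4 or M5, 24 h FGFRi M1, M3 or M5, 72 h FGFRi M2 or M5, or 72 h DMSO M5 or M6, its adjusted p was 0.0507 to 0.0791 (log2 1.43 to 1.60). Lhx1 lost its call without 24 h FGFRi replicate M4 (adjusted p = 0.0548, edgeR) or 72 h FGFRi replicate M2 (adjusted p = 0.0803, edgeR).

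With MEKi none of the 5 tested members was called at either time. At 24 h the 5 tested members had adjusted p values of 0.122 or more in edgeR, against 3.27% of tested genes called. Cdh1, the epithelial cadherin, was at 3.91, 5.31, 6.17 and 8.21 CPM with MEKi and at 2.85, 1.74, 2.11 and 0.778 CPM in DMSO. The groups did not overlap, with a log2 fold change of 1.62 (SE 0.601, adjusted p = 0.122, edgeR), and with only these 2 groups in the fit Cdh1 was called (adjusted p = 0.0284, edgeR). Lhx1 had 12, 15, 15 and 21 counts with MEKi. Among the untested members, Cldn6 summed to 25 counts with MEKi and 19 counts in DMSO. Per effective library size this is a ratio of 2.22 (95% exact interval 1.17 to 4.27, counting error only), and the groups did not overlap in CPM. The intervals of Pax2, Cldn3 and Cldn7 spanned equal levels. Wfdc2 was higher with MEKi at 24 h (37.4 ± 17.7 against 12.3 ± 3.59 CPM, adjusted p = 4e-05, edgeR). Its groups overlapped, with the lowest MEKi library at 16.4 CPM and the highest DMSO library at 17.1 CPM. Of the germ cell genes 6 of 11 tested were higher, with a summed level of 348 to 636 CPM against 155 to 247 CPM. All 5 endothelial genes tested were lower with MEKi. Of 7 tested other epithelial genes 2 were higher, Krt8 (94.1 ± 15.1 against 42.3 ± 8.02 CPM) and Krt18 (71.9 ± 19.7 against 46.9 ± 6.13 CPM). No coelomic gene was called. The part of these lists in the member differences was not tested.

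At 72 h Pax8 was at 14.2, 12.6, 19.5 and 20.5 CPM with MEKi and at 10.7, 10.9, 9.97 and 7.61 CPM in DMSO. Although the groups did not overlap, the adjusted p was 0.0835 (log2 0.76, SE 0.294, edgeR), and in a fit of these 2 groups alone it was 0.0415. Lhx1 measured 1.9, 1.53, 3.14 and 1.62 CPM with MEKi and 1, 0.497, 0.499 and 0.952 CPM in DMSO, apart on this scale although the counts met at 3 (4, 4, 10 and 3 against 3, 1, 1 and 2), and was not called (adjusted p = 0.226, edgeR). Untested Cldn3 summed to 4 counts with MEKi and 18 counts in DMSO, a ratio of 4.82 in favour of DMSO (95% exact interval 1.59 to 19.6, counting error only). The intervals of Pax2, Cldn6 and Cldn7 spanned equal levels. The background was 6.47% of tested genes called. Of 4 tested coelomic genes 3 were higher with MEKi, among them Upk3b (214 ± 18.2 against 122 ± 19.7 CPM). Of 7 tested other epithelial genes 2 were higher, among them Krt7 (84.9 ± 17.5 against 48.9 ± 7.03 CPM). Lower were 4 of 5 endothelial and 4 of 5 macrophage genes, and no germ cell or other duct gene was called. The part of these lists in the member differences was not tested. The change of the MEKi effect between 24 h and 72 h called no member, against 1.41% of tested genes.

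Compared at 72 h and at the same dose of 500 nM, MEKi and FGFRi gave no called difference among the 5 tested members, against 6.43% of tested genes. Epcam was 13.7, 12.6, 18.5 and 12.4 CPM with MEKi and 27.6, 18.2, 27.9 and 17.6 CPM with FGFRi, where 1 MEKi library lay above 2 FGFRi libraries. The log2 fold change was -0.65 (SE 0.244, adjusted p = 0.0848, edgeR), and a p above the threshold does not show that the 2 inhibitors act alike. Without MEKi replicate M4 Epcam was called (log2 -0.82, adjusted p = 0.0498, edgeR). Cldn7 summed to 20 counts with MEKi and 55 counts with FGFRi, a ratio of 2.86 (95% exact interval 1.69 to 5.04, counting error only). Cldn6 summed to 8 and 28 counts, a ratio of 3.64 (1.62 to 9.25). Cldn3 summed to 4 and 28 counts, a ratio of 7.29 (2.55 to 28.6), with 17 of its FGFRi counts in replicate M5. Both inhibitors are compared with the same DMSO libraries, so their separate differences from DMSO share those values.

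Over the 10 groups, mean Pax8 was highest in the 3 XX groups, at 26.6 ± 1.14 CPM at 0 h, 20.1 ± 7.29 CPM at 72 h and 19.9 ± 3.94 CPM at 24 h (SD, n = 4), and lowest in XY DMSO at 72 h (9.8 ± 1.51 CPM). The XY groups between them, from 10.4 ± 4.79 CPM at 0 h to 16.7 ± 3.87 CPM with MEKi at 72 h, lay within about an SD of their neighbours. Mean Epcam ran from 31.1 ± 7.96 CPM in XX at 24 h and 26.3 ± 4.78 CPM in XX at 72 h down to 8.65 ± 2.39 CPM in XY with FGFRi at 24 h. Gata3 ran from 10.5 ± 0.85 CPM in XX at 72 h, next to the highest XX group at 24 h (8.7 to 18.6 CPM), to 4.25 ± 0.739 CPM in XY at 0 h. Cdh1 was highest with MEKi at 24 h (5.9 ± 1.8 CPM) and lowest in XX at 72 h (0.817 ± 1.01 CPM). Lhx1 was highest with MEKi at 24 h (7.64 ± 2.49 CPM) and lowest with FGFRi at 24 h (0.126 ± 0.253 CPM).

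Correlations between the members from library to library were weak. Cdh1 had 0 to 30 and Lhx1 0 to 37 counts per library, so a low r with either cannot show that members vary apart. After each group's mean was removed, Pearson r between pairs of the 5 tested members ran from -0.30 (Epcam with Gata3) to 0.34 (Lhx1 with Pax8) over 40 libraries, which share depth and sort. Among 12980 tested genes with a mean of at least 5 CPM, the gene most like Epcam was Klf5, a zinc-finger factor of epithelia, at r = 0.72 centred within groups, 0.76 without centring and 0.71 with ranks. The next for Epcam were Isca2 (0.63) and Cltb (0.63). For Pax8 they were Adm (0.71), Dazap2 (0.69) and Rab20 (0.68), for Gata3 Rnpc3 (0.64), Trmt44 (0.62) and Gm49179 (0.60). For Lhx1 they were Med22 (0.62), Gypc (0.61) and Dhx40 (0.59), and for Cdh1 Avpi1 (0.63), Dcaf7 (0.62) and Sytl2 (0.61). Without centring 0 of the 3 genes named for Pax8, Gata3 and Lhx1 remained among the nearest 3, and 1 did for Epcam and Cdh1.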

How the data were processed

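Gonadal somatic cells of 40 libraries were profiled by 3′ RNA-seq with UMIs. The authors deposited a table of raw UMI counts per gene (42422 Ensembl identifiers, GRCm39 per the labels), made with an alignment and counting pipeline from pooled indexed libraries, and the labels name limma and edgeR among the processing tools. The strandedness of counting is not given in the sources used here. One MEKi library (24 h, replicate M2) is in the count table and not in the labels' list of names. It was assigned from its column name and the study's list of sample barcodes, which gives it as male, PD0325901, 24 h. Leaving it out changed no member call.

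From the counts, genes were filtered by edgeR 4.0.16 filterByExpr (15125 left), scaled by TMM, and tested in a group-mean model of all 40 libraries with the quasi-likelihood test in R 4.3.3. A gene was called at adjusted p under 0.05 and a fold of at least 1.5, and SE is the fold change divided by the root of F. Identifiers were matched to GENCODE M39 (40391 of 42422, holding 99% of counts). A simulated data set recovered 66% of 2-fold and 93.8% of 4-fold changes among 97 genes each, with 0 false calls. Alternatives were limma 3.58.1 voom, DESeq2 1.42.0, other scalings and filters, a replicate block, fits of the compared groups alone and leaving out each library. The correlation of same-numbered libraries did not exceed 0.1 in every pair of any comparison with 3 or more pairs, so numbers were not taken as pairs. The members and gene lists were chosen with earlier results of these data known. Of other lists up to 3 genes per comparison were named, from those called, not overlapping and at a mean of at least 5 CPM. They were not always the largest changes, and Wfdc2 with MEKi at 24 h was named although its groups overlapped. Where a result turned on a list its abundant genes were named. For each member the 3 genes with the highest within-group r were named, and for Lhx1 also the nearest without centring. Exact 95% intervals cover counting error only.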

Additional observations from a re-analysis of the deposited data

Results flagged for a closer look

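In 11 of 88 member and group pairs with any spread, 1 library lay far from the other 3 of its group (by Dixon's gap over range), where chance flags about 1 in 20. Of these, Pax8 in XX_0h replicate F5 was 24.9 CPM below 3 libraries at 26.9 to 27.3 CPM, and Pax8 in XY_0h replicate M3 was 17.6 CPM above 3 at 7.83 to 8.21 CPM. Gata3 in XY_72h_DMSO replicate M5 was 11.5 CPM and Cdh1 in XY_24h_FGFRi replicate M4 was 4.1 CPM. Cldn3 in XX_72h_DMSO replicate F7 was 4.17 CPM (14 counts) and Cldn6 in XX_24h_DMSO replicate F5 was 2.97 CPM (12 counts). The other 5 rest on 1 or 2 counts in a library beside 3 libraries at 0: Pax2 at 1.01 CPM in XY_24h_FGFRi M1 and at 0.764 CPM in XY_72h_MEKi M3, Lhx1 at 0.505 CPM in XY_24h_FGFRi M1, Cldn3 at 0.377 CPM in XX_0h F5 and Cldn7 at 0.595 CPM in XY_24h_FGFRi M3. With 3 libraries at 0 the gap over range is always 1, so the rate of 1 in 20 does not apply to these 5.

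Tests of a difference between changes passed for 2 members. The sex difference of Epcam from 0 h to 24 h changed by 1.42 on the log2 scale. The FGFRi effect changed from 24 h to 72 h by 1.58 for Epcam and by 5.90 for Lhx1, with pool and condition confounded at 24 h.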

How the results depend on the processing

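The number of members called, 2 at each of the 3 sex comparisons, was 1 at 0 h with a test against a fold of 1.5 (glmTreat), with limma-voom and treat, or with the replicate block, 0 at 24 h with glmTreat or voom, and 0 at 72 h with glmTreat, voom or the replicate block. FGFRi against DMSO at 24 h went from 2 to 1 with the same 3 alternatives. The count went from 1 to 0 for XY 24 h against 0 h with glmTreat or voom (2 with only the groups compared) and, with voom, for XX 24 h against 0 h, XY 72 h against 24 h and FGFRi 72 h against 24 h. FGFRi 72 h against 24 h went from 1 to 2 without a filter or with a filter of 1 CPM. MEKi went from 0 to 1 at 24 h and 72 h with only the groups compared. The change of the sex difference to 24 h went from 1 to 0 with glmTreat or voom, and the change of the FGFRi effect from 2 to 0 with these and to 1 with the replicate block or only the groups compared. Leaving out 1 library gave 1 to 2 calls in the sex comparisons at 0 h and 24 h and in FGFRi at 24 h, 1 to 3 in the sex comparison at 72 h, 0 to 1 in MEKi against FGFRi at 72 h and XY 24 h against 0 h, 1 to 2 in XY 72 h against 24 h, 1 to 3 in FGFRi 72 h against 24 h and 0 to 2 in the change of the FGFRi effect. The glmTreat and voom tests are stricter by construction, the cause of the others was not tested. Replicate numbers are shared by name only, and the replicate block changed no other call. Over all genes, calls went from 3067 to 1490 (glmTreat) and 1087 (voom) at 72 h between the sexes, and from 1232 to 330 with the replicate block for XX 72 h against 24 h. Of the member fold changes recomputed, 2 near 0 changed sign: Epcam in XY 24 h against 0 h (-0.00 with the replicate block, -0.11 to 0.30 without 1 library) and Pax8 with FGFRi at 24 h (-0.21 to 0.19 without 1 library). Depth limits the claudins, Pax2, Lhx1 and Cdh1, which had under 40 counts in every library.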
